A study of Canis lupus familiaris with 12 samples.

Results

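Glycolysis and the hypoxia response were followed as a module of 34 named genes in MDCKII cells, a dog kidney line that grows as a polarized epithelium. The module joined 20 genes of glycolysis and its control with 14 genes known to be induced by low oxygen. Its members came from a fixed list of names, with no cut on their values. The list was chosen with earlier results of these data known. All 34 of 34 were found among the 13672 genes listed in the table, and all 34 exceeded 1 CPM (counts per 1000000 reads) in at least 3 libraries, the filter that 12650 genes passed.

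mRNA was measured by RNASeq in 4 genotypes, with 3 libraries each and 12 in all. WT cells were compared with cells knocked out for cingulin (CGN-KO, line 1G8), for paracingulin (CGNL1-KO, line 22), or for both (double-KO, line 21D3), all made by CRISPR/Cas9 editing and, per the labels, without treatment. Cingulin and paracingulin are cytoplasmic proteins of epithelial junctions. Each KO genotype was 1 line, so an effect of the knockout and a property of that line cannot be told apart, and the labels do not say whether libraries of a genotype came from separate cultures, so p-values measure the spread between libraries. 1 column of double-KO cells carries no replicate number and is called unnumbered.

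Glycolysis splits glucose into pyruvate in the cytosol and yields ATP without oxygen. Its flow is set largely at the phosphofructokinase step, and lactate dehydrogenase converts pyruvate into lactate. When oxygen is low, prolyl hydroxylases no longer mark the HIF-α proteins for destruction, and HIF dimers bind and induce genes for glucose use, vessel growth, collagen processing, pH control, and mitophagy. Kidney tubule cells have been a classic setting for both pathways, since proximal tubule cells make glucose while more distal segments rely on glycolysis.

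The recovered library totals were 16837532 to 30086076 reads, and the 10 genes with the most reads held 7.27% to 10.4% of them. Each targeted mRNA was lower than WT in the lines labeled as its knockout. CGN was at 199 to 233 CPM in WT, 47.0 to 56.5 CPM in CGN-KO, and 198 to 213 CPM in CGNL1-KO libraries. CGNL1 was at 7.74 to 12.3 CPM in WT and 1.76 to 3.02 CPM in CGNL1-KO libraries. In double-KO libraries CGN was at 39.7 to 45.3 CPM and CGNL1 at 1.11 to 1.76 CPM. CGNL1 was also lower than WT in CGN-KO libraries, at 5.04 to 6.92 CPM without overlap. Its log2 change there was -0.61 ± 0.17 (limma adjusted p = 0.0201), and the cause was not tested. The 8 of 8 kidney epithelial markers were listed, with a sum of 5429 to 5622 CPM in WT, 5185 to 5266 CPM in CGN-KO, 5465 to 5642 CPM in CGNL1-KO, and 5278 to 5372 CPM in double-KO libraries. Against WT 6, 2, and 4 of the 8 passed in the KO lines in turn (75%, 25%, and 50%). These shares were above the 19.0%, 10.3%, and 26.3% of all genes. Of the other cell types, 1 of 8 fibroblast genes (PDGFRA, up to 11.1 CPM), 2 of 5 endothelial genes (sum 0.690 to 2.98 CPM), 2 of 6 leukocyte genes (sum 5.40 to 6.91 CPM), and 0 of 4 muscle genes were listed. PDGFRA was at 5.48 CPM or less in WT and 5.88 to 11.1 CPM in CGN-KO libraries, and the endothelial sum was 1.47 to 2.04 CPM in WT, 2.51 to 2.98 CPM in CGNL1-KO, and 0.690 to 0.853 CPM in double-KO libraries; the part of all these markers in the results was not tested. In bulk RNA, fewer cells that express a gene and less RNA per cell cannot be told apart.

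With all 12 libraries in 1 fit and no block, fewer than 10 of the 34 members differed from WT in each KO line taken alone. A member passed a test here when limma gave an adjusted p below 0.05 over all 12650 genes, at any fold. In CGN-KO cells 5 of 34 members (14.7%) passed against WT, beside 19.0% of all genes, with 4 higher (PFKFB3, VEGFA, NDRG1, and P4HA2) and 1 lower (LDHA). In CGNL1-KO cells 3 of 34 (8.82%) passed, beside 10.3% of all genes, and PFKFB3, VEGFA, and P4HA2 were higher. In double-KO cells 9 of 34 (26.5%) passed, beside 26.3% of all genes, with 6 higher (GPI, PFKFB3, PKM, ADM, P4HA2, and CA9) and 3 lower (ENO2, LDHA, and DDIT4). These shares were near or below those of all genes in this fit, and the counts moved with the fit and the libraries used. In a fit blocked on the replicate number, without the unnumbered library, 13, 7, and 12 members passed in turn. These were 38.2%, 20.6%, and 35.3% of members, above the 27.1%, 15%, and 28.2% of all genes in that fit. The 3 comparisons share the WT libraries. The CGN-KO count was 2 without CGN-KO 2 (5.88%, beside 14.5% of all genes in that fit). It was 3 without WT 2 or WT 3 (8.82%, beside 12.8% and 15.9%). Without CGNL1-KO 1 it was 10 (29.4%, beside 23.1%). The CGNL1-KO count was 5 without WT 1 (14.7%, beside 8.38%). It was 6 without CGN-KO 1 or CGNL1-KO 2 (17.6%, beside 11.2% and 9.1%).

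The sizes were small. The median log2 change of the 34 members was 0.06, 0.10, and 0.03 in CGN-KO, CGNL1-KO, and double-KO cells, where the medians of all genes tested were -0.0039, -0.0031, and -0.00036. All changes are on the log2(CPM + 1) scale, which understates the change of scarce genes. A lack of overlap with WT was common. KO libraries lay wholly above WT in 18.4%, 13.3%, and 23.2% of all genes tested in CGN-KO, CGNL1-KO, and double-KO cells. They lay wholly below WT in 17.5%, 11.1%, and 21.8%. Of the 34 members 11, 9, and 9 lay wholly above and 2, 1, and 5 wholly below. By the moderated F test over the genotypes 11 of 34 members differed, beside 29.9% of all genes. 13 members passed at least 1 of 7 tests (that F test and 6 pairwise contrasts) and 21 passed none. The share of all genes that passed at least 1 of the 7 is not given here, so the 13 cannot be set against it. No member (0 of 34) reached a fold of 2 with an adjusted p below 0.05 in limma, where 1.31%, 0.617%, and 1.41% of all genes did in CGN-KO, CGNL1-KO, and double-KO cells against WT, and 0.648%, 0.356%, and 0.696% did in the contrasts of CGN-KO with CGNL1-KO, of double-KO with CGN-KO, and of double-KO with CGNL1-KO cells. At an unadjusted p below 0.05, limma gave 11, 9, 10, 5, 9, and 11 members in the same order of contrasts, beside 32.5%, 22.6%, 37.6%, 17.4%, 22.2%, and 27.1% of all genes. On the recovered reads edgeR and DESeq2 each put 1 member past a fold of 2 in double-KO against WT cells (CA9) and 1 in double-KO against CGNL1-KO cells (DDIT4), and 0 in the other contrasts.

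**Figure D1:**
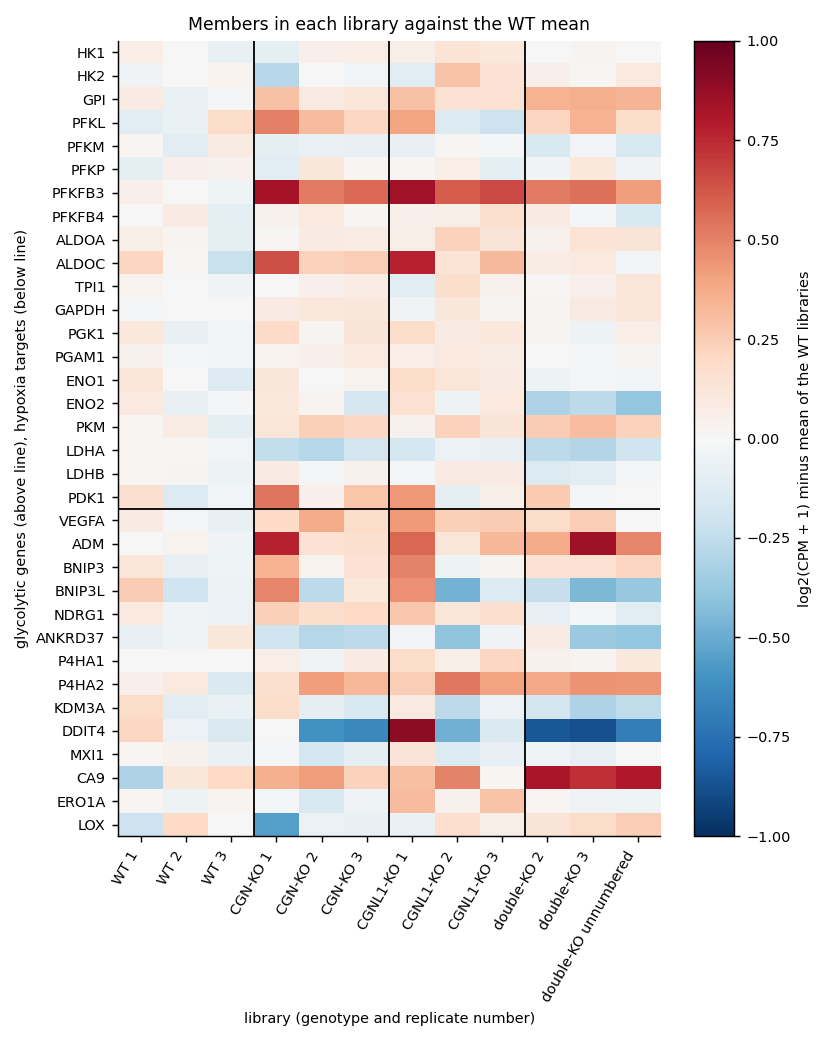
Each row is a member and each column a library, and color gives log2(CPM + 1) minus the mean of the WT libraries (log2 units; glycolytic genes above the horizontal line, hypoxia targets below it). PFKFB3 and P4HA2 are red in all KO lines, LDHA is blue in all KO libraries, and DDIT4 is blue and CA9 red in the 3 double-KO libraries.

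PFKFB3 was the member with the smallest adjusted p against WT in each KO line. It encodes the bifunctional enzyme whose kinase activity makes fructose 2,6-bisphosphate, the strongest activator of phosphofructokinase, and it is itself a HIF target. Its level was 183, 176, and 171 CPM in the WT libraries 1, 2, and 3. It was 315, 254, and 262 CPM in CGN-KO, 316, 270, and 280 CPM in CGNL1-KO, and 254, 259, and 237 CPM in double-KO cells (libraries 2, 3, and unnumbered). Every KO library lay above every WT library. The log2 change was 0.64 ± 0.08 (SE; adjusted p = 1.96e-05) in CGN-KO, 0.70 ± 0.08 (adjusted p = 1.48e-05) in CGNL1-KO, and 0.50 ± 0.08 (adjusted p = 0.000176) in double-KO cells, a ratio of means of 1.57, 1.63, and 1.41. The KO lines did not differ from each other past the threshold, and the double-KO minus CGNL1-KO difference was -0.21 ± 0.08 (adjusted p = 0.089).

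PFKFB4, the related isozyme, passed no test and had group means of 17.0 to 18.5 CPM. The PFKFB3 to PFKFB4 ratio was therefore 10.2 ± 0.546 in WT and 15.4 ± 2.03, 15.6 ± 1.72, and 14.7 ± 0.781 in CGN-KO, CGNL1-KO, and double-KO cells (mean ± SD of CPM ratios, which mix transcript lengths and are compared only between libraries). Each KO group lay wholly above WT, with an exact two-sided permutation p of 0.1, the smallest that 3 against 3 libraries allow (0.2 after adjustment over 18 ratio tests). The phosphofructokinases themselves, which catalyze the committed step, passed no test against WT. PFKP, the most highly counted of them, had group means of 348 to 351 CPM, and PFKM had 23.0 to 25.0 CPM. PFKL was at 49.3, 51.1, and 60.8 CPM in WT and 76.4, 67.0, and 62.1 CPM in CGN-KO libraries, which do not overlap, with a log2 difference of 0.34 ± 0.13 (adjusted p = 0.0682).

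The upper steps gave 1 further call. HK1 and HK2, the hexokinases that trap glucose as its phosphate, had group means of 268 to 287 and 126 to 147 CPM and passed no test against WT. GPI, which turns glucose 6-phosphate into fructose 6-phosphate, was at 294, 265, and 275 CPM in WT, 340, 295, and 302 CPM in CGN-KO, 340, 308, and 309 CPM in CGNL1-KO, and 354, 357, and 351 CPM in double-KO libraries. All KO libraries were above WT, and double-KO cells passed with a log2 change of 0.35 ± 0.06 (adjusted p = 0.000595). GPI was the only member on the chromosome that also holds MYH14, and the median of the 688 tested genes placed there was shifted by 0.20 in double-KO cells on the log2 scale. With each chromosome centred on its median the GPI difference was 0.15 (adjusted p = 0.0878) and the call was lost. The shifts of the chromosomes of the other members lay between -0.08 and 0.05 over the 3 KO lines.

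The enzymes of the middle of the pathway passed no test. ALDOA and TPI1, which yield the 3-carbon phosphates, had group means of 649 to 715 and 548 to 572 CPM, and ALDOC, the scarcer aldolase, was at 29.8, 25.8, and 21.8 CPM in WT, 40.6, 30.2, and 30.5 CPM in CGN-KO, and 44.6, 28.2, and 32.4 CPM in CGNL1-KO libraries. CGN-KO libraries lay above WT without overlap, and the ALDOC log2 differences were 0.37 ± 0.15 and 0.41 ± 0.15 in the single-KO lines (adjusted p = 0.0875 and 0.0915). GAPDH, which oxidizes glyceraldehyde 3-phosphate, was the most abundant member by reads, with group means of 2539 to 2721 CPM. PGK1, the first ATP-forming enzyme, and PGAM1, a mutase, had 371 to 404 and 859 to 908 CPM. The 17 glycolytic enzymes from HK1 to LDHB, summed without PFKFB3, PFKFB4, and PDK1, took 9932 ± 227 CPM in WT and 10193 ± 106, 10327 ± 343, and 10131 ± 184 CPM in CGN-KO, CGNL1-KO, and double-KO cells (mean ± SD), or 0.996% of reads in WT.

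The lower steps moved in both directions. PKM, the pyruvate kinase of most tissues, was at 949, 988, and 881 CPM in WT and 1118, 1165, and 1103 CPM in double-KO libraries, which do not overlap, and rose by 0.27 ± 0.06 on the log2 scale (adjusted p = 0.00633). It was 1018, 1107, and 1082 CPM in CGN-KO and 967, 1104, and 1027 CPM in CGNL1-KO libraries, with adjusted p of 0.0549 and 0.23. ENO2, the enolase known from neurons, was at 52.0, 45.9, and 47.7 CPM in WT, 52.2, 49.5, and 42.9 CPM in CGN-KO, 54.1, 46.8, and 51.9 CPM in CGNL1-KO, and 39.0, 40.3, and 36.8 CPM in double-KO libraries. Every double-KO library was below every other library, and the log2 difference was -0.32 ± 0.08 from WT (adjusted p = 0.00677), -0.31 ± 0.08 from CGN-KO (adjusted p = 0.0228), and -0.39 ± 0.08 from CGNL1-KO cells (adjusted p = 0.00354). The difference from CGN-KO cells was lost without CGN-KO 1 (adjusted p = 0.108), CGN-KO 2 (0.0677), double-KO 2 (0.0638), or the unnumbered library (0.116), and with centring on chromosomes (0.0566). ENO1, the common enolase, had group means of 998 to 1116 CPM and passed no test.

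LDHA, the lactate dehydrogenase subunit of hypoxic and glycolytic cells, was the second most abundant member and the only glycolytic enzyme that fell in 2 lines. It was at 1655, 1643, and 1597 CPM in WT, 1376, 1336, and 1439 CPM in CGN-KO, 1447, 1571, and 1538 CPM in CGNL1-KO, and 1359, 1328, and 1419 CPM in double-KO libraries. All 9 KO libraries were below all WT libraries. The log2 change was -0.24 ± 0.06 in CGN-KO (adjusted p = 0.01001), -0.10 ± 0.06 in CGNL1-KO (adjusted p = 0.331), and -0.25 ± 0.06 in double-KO cells (adjusted p = 0.00484), and no KO line differed from another past the threshold. LDHB, the subunit of oxidative tissues, had group means of 179 to 197 CPM and passed no test. The LDHA to LDHB ratio was 8.59 ± 0.111 in WT and 7.10 ± 0.266, 7.70 ± 0.0658, and 7.66 ± 0.163 in CGN-KO, CGNL1-KO, and double-KO cells, each KO group wholly below WT (exact two-sided permutation p = 0.1, the smallest possible). PDK1, a kinase that keeps pyruvate out of the mitochondrial acetyl-CoA pathway, had group means of 32.7 to 40.4 CPM and passed no test.

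**Figure D2:**
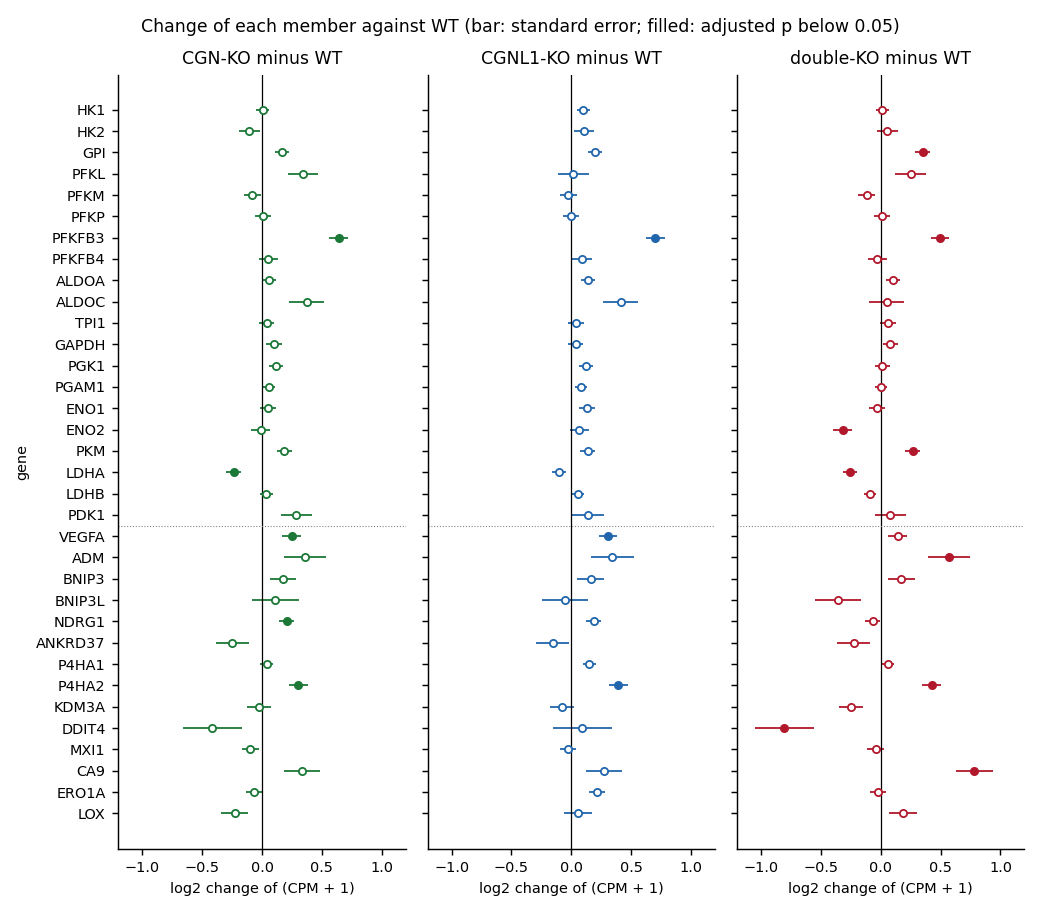
Points give the log2 change of (CPM + 1) against WT of each member in CGN-KO (left), CGNL1-KO (middle), and double-KO cells (right), bars give the SE, and filled points passed an adjusted p below 0.05. PFKFB3 and P4HA2 are filled and to the right of 0 in all panels, and LDHA is filled and to the left in CGN-KO and double-KO cells.

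Among the 14 hypoxia targets P4HA2 was higher in all 3 KO lines. P4HA2 encodes a catalytic subunit of the prolyl 4-hydroxylase that stabilizes collagen. It was at 261, 269, and 228 CPM in WT, 282, 337, and 317 CPM in CGN-KO, 300, 364, and 333 CPM in CGNL1-KO, and 329, 345, and 343 CPM in double-KO libraries, with all KO libraries above WT. The log2 change was 0.30 ± 0.08 (adjusted p = 0.0135), 0.39 ± 0.08 (adjusted p = 0.00392), and 0.43 ± 0.08 (adjusted p = 0.000897). The CGN-KO call was lost without WT 3 (adjusted p = 0.0716) or CGN-KO 2 (0.0695). P4HA1, its paralog, had group means of 75.3 to 83.7 CPM and passed no test.

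VEGFA, the main growth factor for vessels, passed in both single-KO lines. It was at 46.8, 43.8, and 42.0 CPM in WT, 50.8, 57.3, and 50.2 CPM in CGN-KO, and 59.8, 52.3, and 52.8 CPM in CGNL1-KO libraries, above WT without overlap. The log2 change was 0.25 ± 0.08 (adjusted p = 0.0358) and 0.31 ± 0.08 (adjusted p = 0.0189). Double-KO libraries were at 50.3, 52.4, and 44.0 CPM and overlapped WT, with 0.14 ± 0.08 (adjusted p = 0.204), and the double-KO minus CGNL1-KO difference of -0.17 ± 0.08 missed the threshold too (adjusted p = 0.188). The CGN-KO call was lost without WT 2, WT 3, or CGN-KO 2 (adjusted p = 0.101, 0.120, and 0.155), and the CGNL1-KO call without WT 2, WT 3, or CGNL1-KO 1 (adjusted p = 0.0668, 0.0826, and 0.0643) or with scaling to library totals only (0.0512).

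NDRG1, a stress-response gene and a common hypoxia marker, differed between the single-KO lines and double-KO cells. It was at 1129, 1027, and 1011 CPM in WT, 1244, 1192, and 1213 CPM in CGN-KO, 1274, 1148, and 1184 CPM in CGNL1-KO, and 998, 1048, and 979 CPM in double-KO libraries. Both single-KO lines lay above WT and above double-KO cells without overlap, and double-KO and WT libraries overlapped. The log2 change from WT was 0.21 ± 0.06 in CGN-KO (adjusted p = 0.0288), 0.19 ± 0.06 in CGNL1-KO (adjusted p = 0.0697), and -0.06 ± 0.06 in double-KO cells (adjusted p = 0.482). Double-KO cells were lower than CGN-KO cells (-0.27 ± 0.06) and CGNL1-KO cells (-0.25 ± 0.06; adjusted p = 0.0121 each). The CGN-KO call against WT was lost without any single one of 5 libraries, WT 2, WT 3, CGN-KO 1, CGN-KO 2, or CGN-KO 3 (adjusted p = 0.111, 0.0956, 0.0695, 0.0523, and 0.0709), and with only the CGN-KO and WT libraries in the fit (0.0585). The calls of double-KO against CGN-KO and against CGNL1-KO cells were lost without double-KO 2 (adjusted p = 0.0533 and 0.0510) or the unnumbered library (0.0669 and 0.0581).

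DDIT4 (REDD1), an inhibitor of mTORC1 signaling induced by hypoxia and other stresses, was the most variable member. It was at 41.6, 34.4, and 32.3 CPM in WT, 36.0, 23.3, and 22.6 CPM in CGN-KO, 67.7, 25.5, and 32.3 CPM in CGNL1-KO, and 19.5, 19.1, and 21.9 CPM in double-KO libraries. All double-KO libraries were below all others, while the first CGNL1-KO library was far above the rest. Double-KO cells differed by -0.80 ± 0.25 from WT (adjusted p = 0.0240) and by -0.90 ± 0.25 from CGNL1-KO cells (adjusted p = 0.0226). The WT comparison was lost without WT 1, WT 2, double-KO 2, or double-KO 3 (adjusted p = 0.0896, 0.0516, 0.0696, and 0.0839) and with DESeq2 (adjusted p = 0.0622). The CGNL1-KO comparison was lost without double-KO 2, double-KO 3, or the unnumbered library (adjusted p = 0.0719, 0.0856, and 0.0529), and without CGNL1-KO 1 the difference was -0.49 (adjusted p = 0.0444).

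The scarcest members, CA9 and ADM, were higher in double-KO cells. CA9, a cell-surface carbonic anhydrase and one of the most used HIF markers, was at 0.943, 1.60, and 1.77 CPM in WT, 2.08, 2.22, and 1.83 CPM in CGN-KO, 1.97, 2.39, and 1.44 CPM in CGNL1-KO, and 3.24, 3.004, and 3.20 CPM in double-KO libraries. These values rest on 16 to 37 reads in WT and 57 to 74 reads in double-KO libraries. All double-KO libraries exceeded all others, with a log2 change of 0.78 ± 0.15 against WT (adjusted p = 0.00116) and 0.51 ± 0.15 against CGNL1-KO cells (adjusted p = 0.0319), and a ratio of means of 2.19 against WT. The CGNL1-KO comparison was lost without CGNL1-KO 3, double-KO 2, double-KO 3, or the unnumbered library (adjusted p = 0.168, 0.0953, 0.0756, and 0.0925), and with DESeq2 (0.0545). ADM, the precursor of the vasodilator adrenomedullin, was at 1.53, 1.60, and 1.48 CPM in WT and 2.28, 3.57, and 2.57 CPM in double-KO libraries, on 26 to 31 and 40 to 88 reads, with a log2 change of 0.57 ± 0.18 (adjusted p = 0.0248; 0.89 by edgeR on the recovered reads). CGN-KO and CGNL1-KO libraries also lay above WT (1.83 to 3.33 and 1.76 to 2.79 CPM) without passing. The ADM call was lost without WT 1, WT 2, WT 3, or double-KO 3 (adjusted p = 0.0591, 0.0533, 0.0675, and 0.137).

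**Figure D3:**
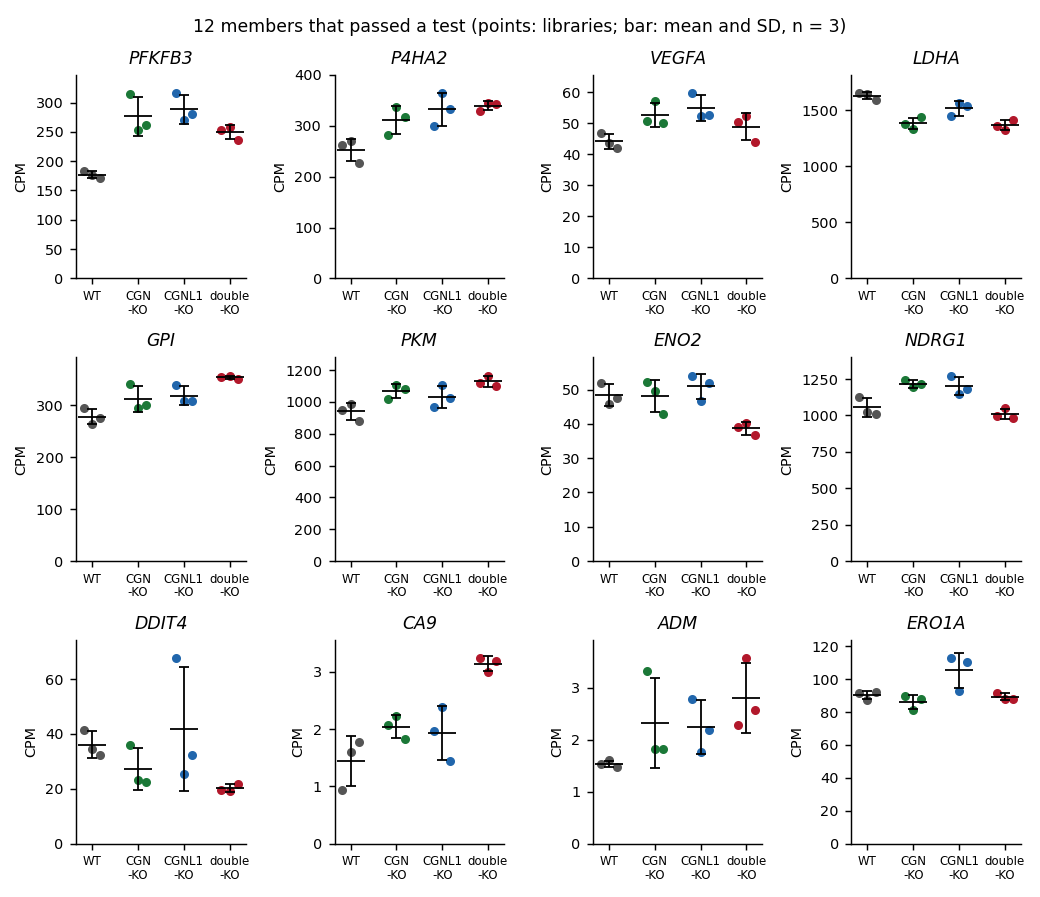
Points are the CPM of single libraries by genotype for 12 of the 13 members that passed a test, and black marks give the mean and SD of 3 libraries (each axis starts at 0). PFKFB3 is above WT in every KO library (171 to 183 CPM in WT), ENO2 and DDIT4 are lowest in the double-KO libraries, and 1 CGNL1-KO library of DDIT4 stands at 67.7 CPM.

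The remaining hypoxia targets passed no test. BNIP3 and BNIP3L, receptors for mitophagy, had group means of 79.9 to 90.6 and 56.9 to 80.6 CPM. KDM3A, a histone demethylase, had 49.9 to 59.7 CPM, MXI1, an antagonist of MYC, 58.4 to 62.4 CPM, and ANKRD37, a small ankyrin-repeat protein, 4.59 to 5.64 CPM. Over all 21 members that passed none, the log2 change against WT ran from -0.25 (ANKRD37) to 0.37 (ALDOC) in CGN-KO, from -0.16 (ANKRD37) to 0.41 (ALDOC) in CGNL1-KO, and from -0.36 (BNIP3L) to 0.25 (PFKL) in double-KO cells.

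ERO1A and LOX passed in no contrast with WT and differed between KO lines. ERO1A, the oxidase that reloads disulfide bonds in the endoplasmic reticulum, was at 91.7, 87.4, and 92.2 CPM in WT, 89.5, 81.4, and 88.0 CPM in CGN-KO, 113, 93.0, and 110 CPM in CGNL1-KO, and 91.7, 88.1, and 87.8 CPM in double-KO libraries. CGNL1-KO cells were above all other groups without overlap, with log2 differences of -0.28 ± 0.07 for CGN-KO (adjusted p = 0.0214) and -0.23 ± 0.07 for double-KO cells (adjusted p = 0.0282), while the change of CGNL1-KO cells from WT was 0.21 ± 0.07 (adjusted p = 0.0558). The first difference was lost without CGN-KO 2, CGN-KO 3, or CGNL1-KO 3 (adjusted p = 0.103, 0.0532, and 0.130) or with only those 2 lines in the fit (0.121), and the second without CGNL1-KO 1, CGNL1-KO 3, double-KO 2, double-KO 3, or the unnumbered library (adjusted p = 0.0940, 0.135, 0.0568, 0.0960, and 0.0959) or with scaling to library totals only (0.0542). LOX, the copper enzyme that crosslinks collagen and elastin, was at 210, 278, and 242 CPM in WT, 165, 232, and 229 CPM in CGN-KO, 231, 272, and 252 CPM in CGNL1-KO, and 265, 275, and 287 CPM in double-KO libraries. Double-KO libraries lay above CGN-KO libraries without overlap, by 0.41 ± 0.11 (adjusted p = 0.0329), and the call was lost without CGN-KO 1, double-KO 2, double-KO 3, or the unnumbered library (adjusted p = 0.130, 0.0690, 0.102, and 0.135), with a difference of 0.25 without CGN-KO 1.

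Compared directly, the KO lines differed in few members. CGN-KO and CGNL1-KO cells differed in 1 of 34 (ERO1A), beside 5.19% of all genes. Same-numbered libraries of these lines deviated together for numbers 1 and 2 and less so for number 3. A fit that blocked on the number and left out the unnumbered library was therefore made too. In it 5 of 34 members passed, beside 9.12% of all genes. In that fit CGN-KO cells were lower in HK2 (-0.21 ± 0.06, adjusted p = 0.0235), DDIT4 (-0.51 ± 0.12, adjusted p = 0.00965), ERO1A (-0.28 ± 0.06, adjusted p = 0.00232), and LOX (-0.28 ± 0.06, adjusted p = 0.00366) and higher in PFKL (0.33 ± 0.10, adjusted p = 0.0453). For all 5 the direction held in each same-numbered pair, which is no further support, since the blocked fit that chose them favors such differences. PFKL, for example, was at 76.4 and 70.6, 67.0 and 48.5, and 62.1 and 46.3 CPM in CGN-KO and CGNL1-KO libraries 1, 2, and 3, and HK2 was at 111 and 125, 135 and 165, and 133 and 150 CPM. Double-KO cells differed from CGN-KO cells in 3 of 34 members (ENO2 and NDRG1 lower and LOX higher), beside 8.84% of all genes, and from CGNL1-KO cells in 5 of 34 (CA9 higher and ENO2, NDRG1, DDIT4, and ERO1A lower), beside 14.4%. Without double-KO 2 these counts fell to 0 and 1 (beside 5.58% and 9.86% of all genes in that fit). The same counts came without the unnumbered library (beside 4.32% and 9.33%). Without double-KO 3 or CGNL1-KO 3 the count against CGNL1-KO cells was 2 or 3 (beside 8.89% and 8.74%). Without CGNL1-KO 1 the count against CGN-KO cells was 5 (14.7%, beside 12%).

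Part of the spread within genotypes followed the replicate number. In the libraries numbered 1 of the 3 genotypes that have one (WT and both single-KO lines), 12 of 34 members had their highest value of the genotype in all 3 genotypes (35.3%, beside 15.6% of all genes tested). These were GPI, PFKFB3, ALDOC, PGK1, ENO1, ENO2, and PDK1 of glycolysis, and BNIP3, BNIP3L, NDRG1, KDM3A, and DDIT4 of the hypoxia targets. HK2, GAPDH, and LOX were lowest there in all 3 genotypes (13.3% of all genes were). DDIT4 in library 1 was 1.25, 1.57, and 2.34 times the mean of the other libraries (WT, CGN-KO, and CGNL1-KO in turn), and BNIP3L was 1.30, 1.47, and 1.69 times that mean. Without these 3 libraries all 26 pairwise calls of members were kept, and the members passing against WT were 12, 10, and 13 for CGN-KO, CGNL1-KO, and double-KO cells (35.3%, 29.4%, and 38.2%), beside 23.5%, 13.9%, and 32.3% of all genes in that fit. Leaving them out was chosen after seeing the data, so the higher shares of members can follow from that choice. In that fit DDIT4 in double-KO against CGNL1-KO cells fell in size from -0.90 to -0.49, and LOX in double-KO against CGN-KO cells from 0.41 to 0.25.

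**Figure D4:**
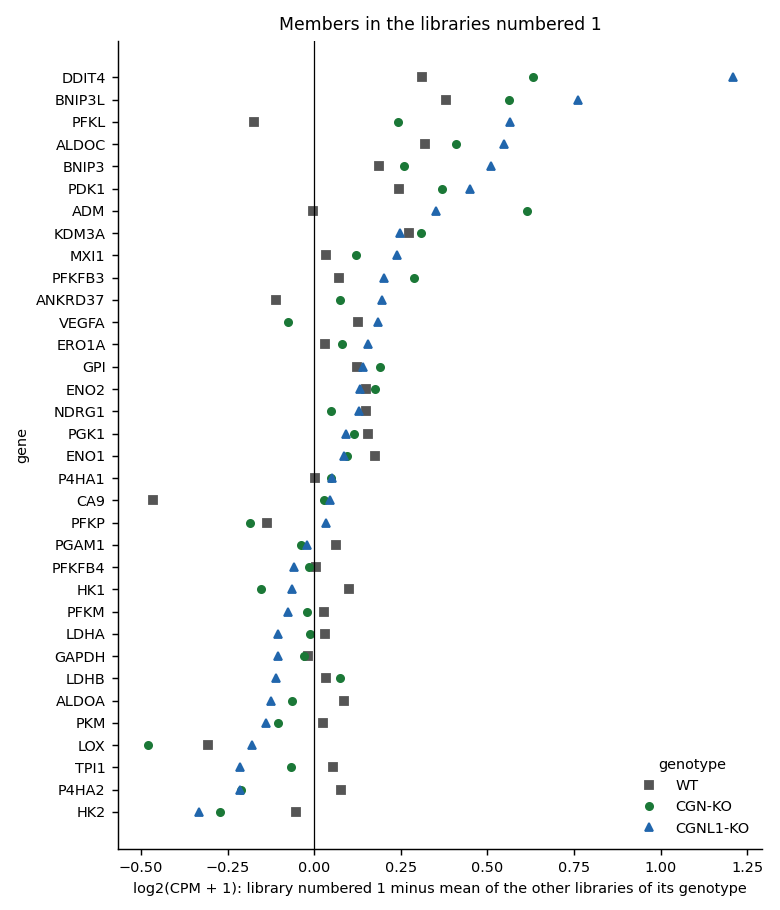
Each row is a member, and symbols give log2(CPM + 1) of the library numbered 1 minus the mean of the other libraries of WT (squares), CGN-KO (circles), and CGNL1-KO cells (triangles). DDIT4 and BNIP3L have the symbols farthest to the right, with 1.21 for DDIT4 in CGNL1-KO cells, and HK2 and LOX lie to the left of 0 in all 3 genotypes.

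Around the module, EPAS1 rose in all KO lines. Each list around the module stands beside the same shares of all genes against WT, 19.0%, 10.3%, and 26.3% in CGN-KO, CGNL1-KO, and double-KO cells. 8 of 10 listed names of HIF subunits and regulators were tested, and 3, 3, and 4 passed against WT in CGN-KO, CGNL1-KO, and double-KO cells (37.5%, 37.5%, and 50.0%), all higher. EPAS1, which encodes HIF-2α, was at 10.5, 9.72, and 10.8 CPM in WT, 60.5, 74.8, and 68.0 CPM in CGN-KO, 38.3, 34.1, and 37.2 CPM in CGNL1-KO, and 49.1, 61.3, and 48.1 CPM in double-KO libraries. The groups did not overlap with WT, and the log2 changes were 2.59 ± 0.09, 1.72 ± 0.09, and 2.24 ± 0.09 (adjusted p = 2.15e-11, 1.14e-08, and 1.72e-10). ARNT2, a partner of HIF-α, was 0.63 ± 0.09, 0.32 ± 0.09, and 0.43 ± 0.09 higher (adjusted p = 7.30e-05, 0.0250, and 0.00160). The CGNL1-KO call of ARNT2 was lost without WT 2 (adjusted p = 0.114), WT 3 (0.0506), or CGNL1-KO 1 (0.0885), and with only those 2 genotypes in the fit (0.0616). HIF1A, named after its values were seen, was at 119 ± 4.81 CPM in WT and 140 ± 5.27, 138 ± 3.85, and 147 ± 4.68 CPM in the KO lines, 0.23, 0.22, and 0.31 higher on the log2 scale (adjusted p = 0.00428, 0.0110, and 0.000340). Of the prolyl hydroxylases that sense oxygen, EGLN1 and EGLN3 did not pass against WT, and EGLN2, named after its values were seen, rose in double-KO cells by 0.41 on the log2 scale. EGLN3, itself a HIF target, had group means of 20.002 to 22.7 CPM.

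Other genes known to be induced by hypoxia moved both ways. Of 30 such names, HK2 among them, 25 were tested. CGN-KO cells had 8 higher and 2 lower, CGNL1-KO cells 6 higher and 0 lower, and double-KO cells 8 higher and 5 lower, or 40.0%, 24.0%, and 52.0% of the 25. The medians of the 25 were 0.07, 0.09, and -0.05. CA12, a membrane carbonic anhydrase, was at 47.2, 40.7, and 42.6 CPM in WT, 89.6, 74.1, and 76.1 CPM in CGN-KO, 147, 99.6, and 121 CPM in CGNL1-KO, and 75.5, 72.3, and 65.1 CPM in double-KO libraries, with log2 changes of 0.86 ± 0.11, 1.46 ± 0.11, and 0.69 ± 0.11 (adjusted p = 4.34e-05, 2.92e-07, and 0.000249). PPP1R3C, which targets a phosphatase to glycogen, was 1.01 ± 0.18, 1.12 ± 0.18, and 0.69 ± 0.18 higher (adjusted p = 0.000766, 0.000566, and 0.00924), and its double-KO call was lost without double-KO 2 (adjusted p = 0.0575). CXCR4, a chemokine receptor, was at 1.55 to 2.72 CPM in WT and 0.853, 0.690, and 0.581 CPM in double-KO libraries, lower with a log2 change of -0.94 ± 0.17 (adjusted p = 0.000724; -1.71 by edgeR on the recovered reads), and did not pass in the single-KO lines.

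**Figure D5:**
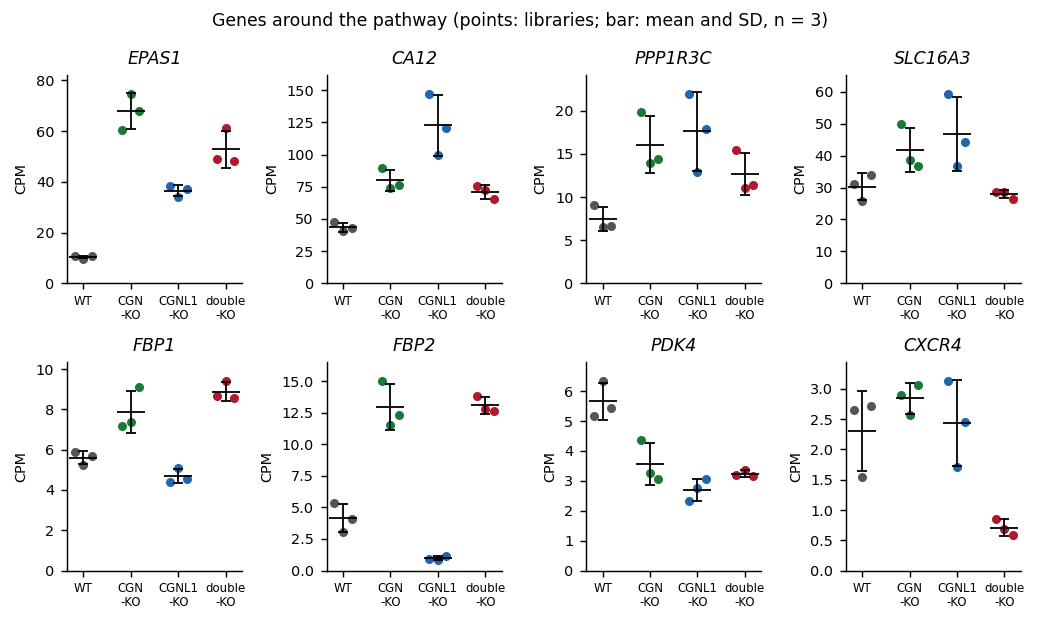
Points are the CPM of single libraries by genotype for 8 genes around the module, and black marks give the mean and SD of 3 libraries (each axis starts at 0). EPAS1, CA12, and PPP1R3C lie above WT in every KO library, PDK4 lies below it, and FBP2 is above WT in CGN-KO and double-KO and near 1 CPM in CGNL1-KO libraries.

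Genes that feed or leave the pathway gave further calls. Of the sugar and lactate carriers 7 of 14 were tested, and 3, 2, and 4 passed in CGN-KO, CGNL1-KO, and double-KO cells (42.9%, 28.6%, and 57.1%). All were higher in the single-KO lines, and in double-KO cells 2 were higher and 2 lower. SLC16A3 (MCT4), the exporter of lactate from glycolytic cells, was at 31.1, 25.8, and 34.1 CPM in WT, 49.8, 38.6, and 36.9 CPM in CGN-KO, 59.5, 36.8, and 44.1 CPM in CGNL1-KO, and 28.6, 28.7, and 26.4 CPM in double-KO libraries. It was 0.45 ± 0.14 and 0.59 ± 0.14 higher in the single-KO lines (adjusted p = 0.0396 and 0.0138), and -0.11 ± 0.14 in double-KO cells (adjusted p = 0.621). The CGN-KO call was lost without WT 1, WT 2, CGN-KO 1, CGN-KO 2, CGNL1-KO 3, double-KO 2, double-KO 3, or the unnumbered library (adjusted p = 0.0666, 0.179, 0.146, 0.0539, 0.0524, 0.0543, 0.0558, and 0.0534) and with centring on chromosomes (0.0642), and the CGNL1-KO call without WT 2 (adjusted p = 0.0829). SLC2A4 (GLUT4), the insulin-regulated glucose carrier, was at 4.86 to 5.54 CPM in WT and 2.86 to 3.30 CPM in double-KO libraries, lower with a log2 change of -0.60 ± 0.16 (adjusted p = 0.0121). SLC2A1 (GLUT1), the basal glucose carrier and a HIF target named after its values were seen, was at 331, 330, and 331 CPM in WT and 271, 280, and 281 CPM in double-KO libraries, lower with a log2 change of -0.25 ± 0.05 (adjusted p = 0.000690). BSG and SLC2A8, also named after their values were seen, went the other way. BSG was higher by 0.32, 0.20, and 0.35 in CGN-KO, CGNL1-KO, and double-KO cells (adjusted p = 0.000528, 0.0251, and 0.000206). SLC2A8 was higher by 0.23 in CGN-KO and 0.28 in double-KO cells (adjusted p = 0.0481 and 0.0128).

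PDK4, which inhibits pyruvate dehydrogenase in fasting, fell in all KO lines, with log2 changes of -0.55 ± 0.13, -0.85 ± 0.13, and -0.65 ± 0.13 (adjusted p = 0.00557, 0.000315, and 0.00124). It was at 5.19 to 6.35 CPM in WT and 2.32 to 4.35 CPM over the KO libraries. Of the 13 genes of the pyruvate dehydrogenase list 1, 3, and 2 passed in CGN-KO, CGNL1-KO, and double-KO cells (7.69%, 23.1%, and 15.4%), with 0, 1, and 1 higher and 1, 2, and 1 lower. PDK2, named after its values were seen, went against PDK4 in CGNL1-KO cells. It had a mean of 125 CPM in WT and 164 CPM there, higher by 0.39 ± 0.08 on the log2 scale (adjusted p = 0.00378). MPC1 was lower in CGNL1-KO cells (-0.34, adjusted p = 0.0268) and DLD higher in double-KO cells (0.17, adjusted p = 0.0448). Of the other glycolytic isozymes 5 of 14 were tested, and 1, 0, and 2 were higher with 0 lower. ENO3, the muscle enolase, was at 4.11 to 4.97 CPM in WT and 7.01 to 7.50 CPM in CGN-KO libraries, and was 0.58 ± 0.10 higher (adjusted p = 0.000379), with 0.43 ± 0.10 in double-KO cells (adjusted p = 0.00303).

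Gluconeogenesis held the gene with opposite changes. FBP2, the muscle fructose 1,6-bisphosphatase, was at 5.36, 3.09, and 4.06 CPM in WT, 15.03, 11.6, and 12.3 CPM in CGN-KO, 0.929, 0.858, and 1.18 CPM in CGNL1-KO, and 13.8, 12.8, and 12.6 CPM in double-KO libraries. CGN-KO and double-KO cells lay wholly above and CGNL1-KO cells wholly below WT, with log2 changes of 1.45 ± 0.14, 1.47 ± 0.14, and -1.36 ± 0.14 (adjusted p = 2.25e-06, 1.73e-06, and 1.01e-05), the last of them -2.07 by edgeR on the recovered reads. FBP1, the liver and kidney form, was 0.42 ± 0.10 higher in CGN-KO (adjusted p = 0.00975) and 0.58 ± 0.10 in double-KO cells (adjusted p = 0.000677; 0.38 with centring on chromosomes), with -0.22 ± 0.10 in CGNL1-KO cells (adjusted p = 0.232), and the CGN-KO call was lost without CGN-KO 3 (adjusted p = 0.0583). Of 7 names in this list 5 were tested, and 3, 1, and 5 of the 5 passed. Reads of members with close copies elsewhere in the genome (GAPDH, PKM, LDHA, PGK1, ENO1, and TPI1 have processed pseudogenes in mammals) are uncertain to the extent that counting split or dropped them.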

How the data were processed

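The authors prepared stranded mRNA libraries, aligned the reads with STAR 2.7.0f to CanFam3.1 and counted them with HTSeq 0.9.1, per the labels and the study's methods. They deposited CPM, a signal scaled by library size, for 13672 genes by symbol (16 names have the form of a date). In each library the deposited CPM were whole steps of a single read (100% within a tolerance of 0.1), so reads were recovered. The deposited CPM were divided by library totals times scaling factors of 0.966 to 1.02.

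Genes over 1 CPM in 3 or more libraries (12650) were tested on log2(CPM + 1) with limma 3.58.1 in R 4.3.3 (trend, 12 libraries in 1 fit, no block) and Benjamini-Hochberg adjustment over all of them. Every adjusted p is from limma unless another tool is named. edgeR 4.0.16 and DESeq2 1.42.0 were run on the recovered reads as alternatives. The steps were tested on simulated data with changes larger than a fold of 2. That test does not cover the smaller changes of the members in limma. Fold calls also needed a fold of 2. CGN-KO and CGNL1-KO libraries of the same number correlated in their deviations from the group means (0.632, 0.475, and 0.179), and this pairing comes from the data alone. It is weak for number 3, since CGN-KO 3 correlated more with CGNL1-KO 2 (0.320) than with CGNL1-KO 3. Ratios were compared by exact two-sided permutation tests.

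Members and gene lists were chosen with earlier results of these data known. Values by library were to be given for members with an F test adjusted p below 0.05 and a log2 change of at least 0.5 (PFKFB3, DDIT4, and CA9), for the most and least abundant, and for up to 4 genes per further list by size of change. Some genes that this rule names are not reported here. The other members given by library were chosen after their values were seen. Chromosomes were taken from RefSeq UU_Cfam_GSD_1.0 by symbol, without coordinates, since its build differs. A promoter motif search and isozyme levels per coding length were planned and not run, as no sequence table was used here. Each KO genotype was 1 line.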

Additional observations from a re-analysis of the deposited data

Results flagged for a closer look

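The results given here differed between KO lines by a direct test of the difference in limma (log2(CPM + 1), adjusted over all genes tested), and no cause was tested for any of them.

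Among the members, ENO2 was lower in double-KO than in CGN-KO cells (-0.31, adjusted p = 0.0228) and than in CGNL1-KO cells (-0.39, adjusted p = 0.00354). NDRG1 was lower in double-KO than in CGN-KO (-0.27) and CGNL1-KO cells (-0.25), with an adjusted p of 0.0121 for both. DDIT4 was lower (-0.90, adjusted p = 0.0226, and -0.49, adjusted p = 0.0444, without CGNL1-KO 1) and CA9 higher (0.51, adjusted p = 0.0319) in double-KO than in CGNL1-KO cells. ERO1A was lower than in CGNL1-KO cells in CGN-KO (-0.28, adjusted p = 0.0214) and double-KO cells (-0.23, adjusted p = 0.0282), and LOX was higher in double-KO than in CGN-KO cells (0.41, adjusted p = 0.0329, and 0.25, adjusted p = 0.130, without CGN-KO 1). ENO2 against CGNL1-KO cells is the only one of these that kept its call under every alternative.

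Around the module, FBP2 was higher by 2.81 in CGN-KO (adjusted p = 2.94e-09) and 2.83 in double-KO cells (adjusted p = 5.33e-09), both against CGNL1-KO cells. FBP1 was higher than in CGNL1-KO cells in CGN-KO (0.64, adjusted p = 0.00134) and double-KO cells (0.80, adjusted p = 9.40e-05). EPAS1 was higher in CGN-KO than in CGNL1-KO cells (0.87, adjusted p = 2.57e-05), higher in double-KO than in CGNL1-KO cells (0.51, adjusted p = 0.00174), and lower in double-KO than in CGN-KO cells (-0.36, adjusted p = 0.0267). CA12 was lower than in CGNL1-KO cells in CGN-KO (-0.60, adjusted p = 0.00359) and double-KO cells (-0.76, adjusted p = 0.000259). CXCR4 was lower in double-KO than in CGN-KO (-1.17, adjusted p = 0.000526) and CGNL1-KO cells (-0.99, adjusted p = 0.00102), and SLC16A3 was lower in the same contrasts (-0.56, adjusted p = 0.0235, and -0.70, adjusted p = 0.00372).

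Smaller differences were found for ENO3 (0.35, adjusted p = 0.0417) and ARNT2 (0.31, adjusted p = 0.0482) in CGN-KO against CGNL1-KO cells. Leaving out 1 library ended 4 of the calls around the module. EPAS1 in double-KO against CGN-KO cells was lost without CGN-KO 2, CGN-KO 3, double-KO 2, or the unnumbered library (adjusted p = 0.103, 0.0786, 0.118, and 0.146), and SLC16A3 in the same contrast without CGN-KO 1, double-KO 2, double-KO 3, or the unnumbered library (adjusted p = 0.105, 0.0623, 0.0673, and 0.105). ENO3 was lost without any single library of CGN-KO, CGNL1-KO, or double-KO cells (adjusted p = 0.0521 to 0.133), and ARNT2 without any 1 library other than CGN-KO 2 and CGNL1-KO 1 (adjusted p = 0.0550 to 0.232).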

How the results depend on the processing

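Of the 26 pairwise calls of members, 11 were kept under all 22 alternatives and 0 were reversed, and of 41 calls of the genes named around the module, 32 were kept and 0 reversed. Calls of members lost numbered 2 with scaling to library totals, 2 with DESeq2, 0 with edgeR, 2 with only the genotypes compared, 2 with centring on chromosomes, and 0 with a pseudocount of 0.25 or without the filter. The scarce members are limited by depth, since CA9 rested on 16 to 37 reads in WT libraries.

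The number of members passing moved as follows, and the cause was not tested unless stated. Without 1 library in turn it ranged from 2 to 10 in CGN-KO against WT (5 with all), from 2 to 6 in CGNL1-KO against WT (3), from 7 to 11 in double-KO against WT (9), from 0 to 3 in CGN-KO against CGNL1-KO (1), from 0 to 5 in double-KO against CGN-KO (3), from 1 to 7 in double-KO against CGNL1-KO (5), and from 8 to 15 for the F test (11). It fell to 2 without CGN-KO 2 and to 3 without WT 2 or WT 3, and rose to 10 without CGNL1-KO 1, in CGN-KO against WT. In CGNL1-KO against WT it was 6 without CGN-KO 1 or CGNL1-KO 2 (17.6%, beside 11.2% and 9.1% of all genes). Without WT 1 it was 5 there (14.7%, beside 8.38%). In CGN-KO against CGNL1-KO it was 0 without CGN-KO 2, CGN-KO 3, or CGNL1-KO 3 (beside 3.64%, 3.42%, and 2.7% of all genes). Without CGNL1-KO 1 it was 3 there (8.82%, beside 8.63%). In double-KO against CGN-KO it was 0 without double-KO 2 or the unnumbered library and 5 without CGNL1-KO 1, and in double-KO against CGNL1-KO it was 1 without either of these double-KO libraries, 2 without double-KO 3, and 3 without CGNL1-KO 3.

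In CGNL1-KO against WT DESeq2 gave 7 (20.6%, beside 10.8% of all genes in that fit). Centring on chromosomes gave 5 there (14.7%, beside 9.53%). Both shares were above those of all genes, where that of the main fit was not. With only the genotypes compared, 0 passed in CGN-KO against CGNL1-KO (beside 2.58%) and 6 in double-KO against CGN-KO (17.6%, beside 11.9%). In double-KO against WT that fit gave 13 (38.2%, beside 32.3%). At a fold of 2, edgeR and DESeq2 gave 1 member each in double-KO against WT and against CGNL1-KO, a pseudocount of 0.25 gave 1 against WT, and leaving out CGNL1-KO 2 or 3 gave 1 (0 to 1 over the libraries) against CGNL1-KO. Without the 3 libraries numbered 1, an alternative chosen after seeing the data, 12, 10, 4, 5, 11, and 20 members passed in CGN-KO against WT, CGNL1-KO against WT, CGN-KO against CGNL1-KO, double-KO against CGN-KO, double-KO against CGNL1-KO, and the F test, beside 23.5%, 13.9%, 10.3%, 11.7%, 21.6%, and 39.3% of all genes.

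With the replicate number as a block and without the unnumbered library, 13 members (38.2%) passed in CGN-KO against WT, 7 (20.6%) in CGNL1-KO against WT, 5 (14.7%) in CGN-KO against CGNL1-KO, and 18 (52.9%) by the F test, beside 27.1%, 15%, 9.12%, and 35.4% of all genes. In double-KO against WT 12 (35.3%) passed with the block, beside 28.2%. These shares of members were above those of all genes with the block, where without it those against WT were near or below them. Without a block and without that library (also chosen after seeing the data) 0 passed in double-KO against CGN-KO and 1 in double-KO against CGNL1-KO. Same-numbered libraries of WT and CGN-KO correlated at 0.373, 0.318, and -0.0822, those of WT and CGNL1-KO at 0.329, 0.371, and 0.0110, and those with double-KO cells at -0.235 to 0.0859. Not every pair exceeded 0.1, so the numbers were not taken as pairing these genotypes, although numbers 1 and 2 correlated between WT and each single-KO line. The fit without a block leaves that shared spread in the contrasts with WT. The choice matters, since without the unnumbered library 5 members passed in CGN-KO against WT without the block and 13 with it. The block ended 3 pairwise calls of members (ENO2 in double-KO against CGN-KO, and CA9 and ERO1A in double-KO against CGNL1-KO cells; adjusted p = 0.0840, 0.0772, and 0.0529).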
